A study of Mus musculus with 32 samples.

Results

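The comparison described here asked how the response of intestinal stem cells to a high-fat diet differed between mice carrying changes at both Ppard and Ppara and wild-type mice. It used 16 of the 32 libraries of the study, 4 in each of 4 groups, chosen by their genotype and diet labels. WT mice were labelled Wildtype and PparDA mice Ppard-fl/fl; Ppara-null, all of strain C57BL6, and mice of each genotype were fed a control diet (control-fed below) or a high-fat one (fat-fed). The other 16 libraries, from PparD (Ppard-fl/fl) and PparA (Ppara-null) mice on both diets, entered the model fit and are named where they stand beside these values. The cells were crypt cells stained for CD326, an epithelial surface marker, and with DAPI, a dye that marks dead cells, and sorted for high GFP, a fluorescent reporter. Polyadenylated RNA was profiled with a 3'DGE protocol, in which transcripts are read and counted at their 3' ends. Ages, diet duration, what drives the GFP, whether and in which cells the floxed Ppard alleles were recombined, and whether the 4 libraries of a group came from separate mice are not stated in these sources. The p-values therefore measure the spread between these libraries, which may be partly technical.

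PPARδ and PPARα, the products of Ppard and Ppara, are nuclear receptors that bind fatty acids and act on DNA together with the retinoid X receptor. Their best known targets encode proteins that carry fatty acids into mitochondria and shorten them there by β-oxidation. In the intestine fatty acid oxidation is known to be active in crypt stem cells, and a fat-rich diet supplies the ligands of these receptors.

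The 16 libraries held 612672 to 724155 counts each over 11683 to 12212 genes. By number the libraries form 4 runs of 8 in which each group occurs once, and the run was a factor in the fit. Runs 1 and 3 had the X-inactivation transcript Xist at 479 CPM or more and the Y-linked gene Ddx3y at 0. Runs 2 and 4 had Xist at 3.04 CPM or less and Ddx3y at 23.6 CPM or more. Runs 1 and 3 thus had the pattern of female cells and runs 2 and 4 that of male cells. Each of the 4 groups therefore came from more than 1 mouse. CPM are counts per 1e+06 counts of the tested genes, scaled for library composition. The place of a library in its run went with its group in PparDA, so place and diet cannot be told apart there. In WT the order was control-fed then fat-fed in runs 1, 2 and 3 and the reverse in run 4. Ppara was at 0 to 5 counts and Ppard at 0 to 7 counts a library in all groups, too low to be tested, so neither gene checks its genotype label. The stem cell markers Lgr5 (30.3 to 66.0 CPM) and Olfm4 (7270.1 to 12619 CPM) were present in every library. Paneth cell markers were also present in every library. Among lymphocyte genes Cd3e was at 0 in 14 of 16, Cd8a in 13, Nkg7 in 12, Ptprc and Cd3g in 11 and Gzma in 8. The Paneth list summed to 52029 CPM in the WT high-fat library of run 1 and 45405 CPM in the PparDA control library of run 4. All others held 4456 to 21579 CPM. The WT control library of run 4, at 17632 CPM, lay within that range but was the highest of its group (4646 to 6040.3 CPM in the others). Values without the WT high-fat library of run 1 and the WT control library of run 4 are given with the marker lists.

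The diet response of PparDA differed from that of WT for 4 genes of 5872 tested (0.0681%) at an adjusted p under 0.05, with 3 lower and 1 higher in PparDA. At an unadjusted p under 0.05 there were 393 genes (6.69%), of which 208 were lower (3.54%) and 185 higher (3.15%). The 4 genes were the fatty acid oxidation gene Acadvl, the ribosomal protein gene Rps24, and the ribosomal pseudogenes Rpl28-ps1 and Rpl31-ps8. Each had an adjusted p of 0.0449. Genes were placed by their diet effects in the same fit at an unadjusted p under 0.05, as a description. Acadvl fell in the class of lost responses (an effect in WT only), Rps24 in that of turned responses (opposite effects), Rpl31-ps8 in that of gained responses (an effect in PparDA only) and Rpl28-ps1 in that of resized responses (the same direction in both). Of the 393 genes, 141 were lost, 144 gained, 13 turned and 2 resized, and 93 had neither effect. Both pseudogenes had counts in run 1 only, and with the test restricted to the 5863 genes with counts in at least 2 runs no gene was called by edgeR, with 391 at an unadjusted p under 0.05. On all 5872 genes DESeq2 and limma each called 1 gene, Rps24. With single libraries left out, the count of calls was 4 without either WT library of run 4 and 1 without the WT control library of run 1. It was 0 without any other library. Without either WT library of run 4 the calls were Rps24, both pseudogenes and Clta, and Acadvl was not called. Without the WT control library of run 1 the call was Acadvl.

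**Figure D1:**
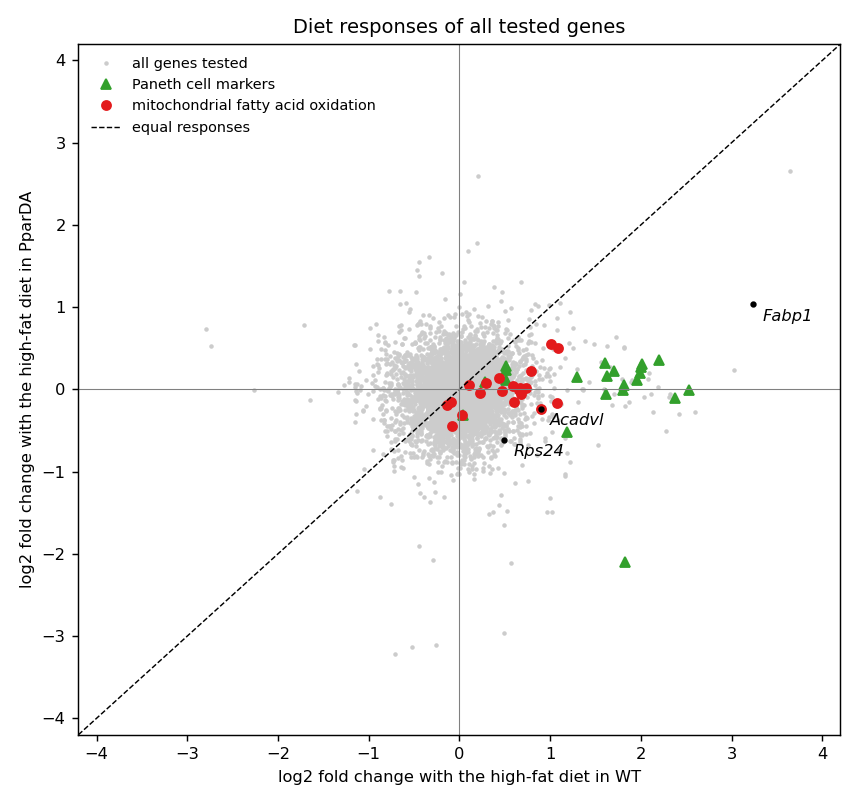
Each grey point is 1 of the 5872 tested genes, placed by its log2 fold change with the high-fat diet in WT (horizontal) and in PparDA (vertical); the dashed line marks equal responses, and 9 genes lie outside the axes. Red circles mark the fatty acid oxidation list and green triangles the Paneth cell list, and all 20 red and 21 green points lie below the dashed line.

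Acadvl encodes the very-long-chain acyl-CoA dehydrogenase of mitochondria, which takes the first step of β-oxidation of long-chain fatty acids (ENSMUSG00000018574; chromosome 11, 70010183 to 70015411, minus strand, GRCm38). Control-fed WT libraries of runs 1 to 4 held 97.7, 70.4, 68.4 and 70.4 CPM. Fat-fed WT libraries held 127, 131, 129 and 192 CPM. Every WT high-fat library lay above every WT control library. PparDA libraries held 88.3, 63.3, 67.4 and 74.3 CPM when control-fed and 62.5, 54.6, 63.7 and 69.2 CPM when fat-fed, and these ranges overlapped. Acadvl rose by a log2 fold change of 0.90 ± 0.15 (SE) with the diet in WT (adjusted p = 0.008), while the value in PparDA was -0.23 ± 0.17 (adjusted p = 0.693). The responses differed by -1.13 ± 0.23 on the log2 scale, and the difference was below 0 in each run (-0.86, -1.09, -0.99 and -1.54). Runs 1 and 3 alone gave -0.93 ± 0.35 and runs 2 and 4 alone -1.34 ± 0.29. The genotypes differed by -0.07 on the control diet (adjusted p = 0.895), and Acadvl was lower in PparDA by -1.20 on the high-fat diet (adjusted p = 2.31e-05). In run 4, where the WT order was reversed, the high-fat library was also the higher one. The call was lost on leaving out any one of 15 of the 16 libraries, all but the WT control library of run 1, with differences of -1.28 to -1.02 and adjusted p of 0.0352 to 0.383 over the 16.

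The promoter of Acadvl is shown because this is the called gene of the oxidation pathway, and that of Fabp1, the gene with the highest WT response among the known PPAR targets described below, for comparison. The sequences are those of RefSeq (GRCm38.p6), 250 bases before to 50 after the start, written 5′ to 3′ on the gene's strand. Both strands were searched for AGGTCA, the hexamer that these receptors recognise, and for its direct repeat with a single base between the copies, allowing 2 mismatches in the 12 fixed letters. Capitals mark the hexamer in Acadvl, at chr11:70015379-70015678 (minus strand), and the repeat, on the opposite strand, in Fabp1, at chr6:71199629-71199928 (plus strand).
Acadvl: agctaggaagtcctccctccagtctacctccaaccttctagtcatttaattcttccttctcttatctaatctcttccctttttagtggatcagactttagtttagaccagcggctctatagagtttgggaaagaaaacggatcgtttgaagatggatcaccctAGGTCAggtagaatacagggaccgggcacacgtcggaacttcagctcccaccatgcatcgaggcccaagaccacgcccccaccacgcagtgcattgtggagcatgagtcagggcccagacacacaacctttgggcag
Fabp1: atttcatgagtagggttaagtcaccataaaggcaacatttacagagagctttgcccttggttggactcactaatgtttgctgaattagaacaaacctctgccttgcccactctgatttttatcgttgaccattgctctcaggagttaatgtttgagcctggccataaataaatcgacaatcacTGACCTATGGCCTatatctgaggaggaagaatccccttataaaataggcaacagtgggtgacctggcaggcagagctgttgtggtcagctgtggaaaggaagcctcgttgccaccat
The Fabp1 promoter matched the repeat with 1 mismatch, 67 bases before the start, and held 2 exact hexamers. The Acadvl promoter held 1 hexamer and no repeat. Over all 32851 promoters in the table, 16.3% held the hexamer and 3.86% the repeat. Of the 20 tested oxidation genes, 18 had a promoter in the table. The repeat was held by 3 of these, Etfa, Slc25a20 and Echs1, each with 2 mismatches, beside 4.40% of all genes. The hexamer was held by 4 of the 18, beside 18.1% of all genes. These matches describe the letters in these windows only.

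**Figure D2:**
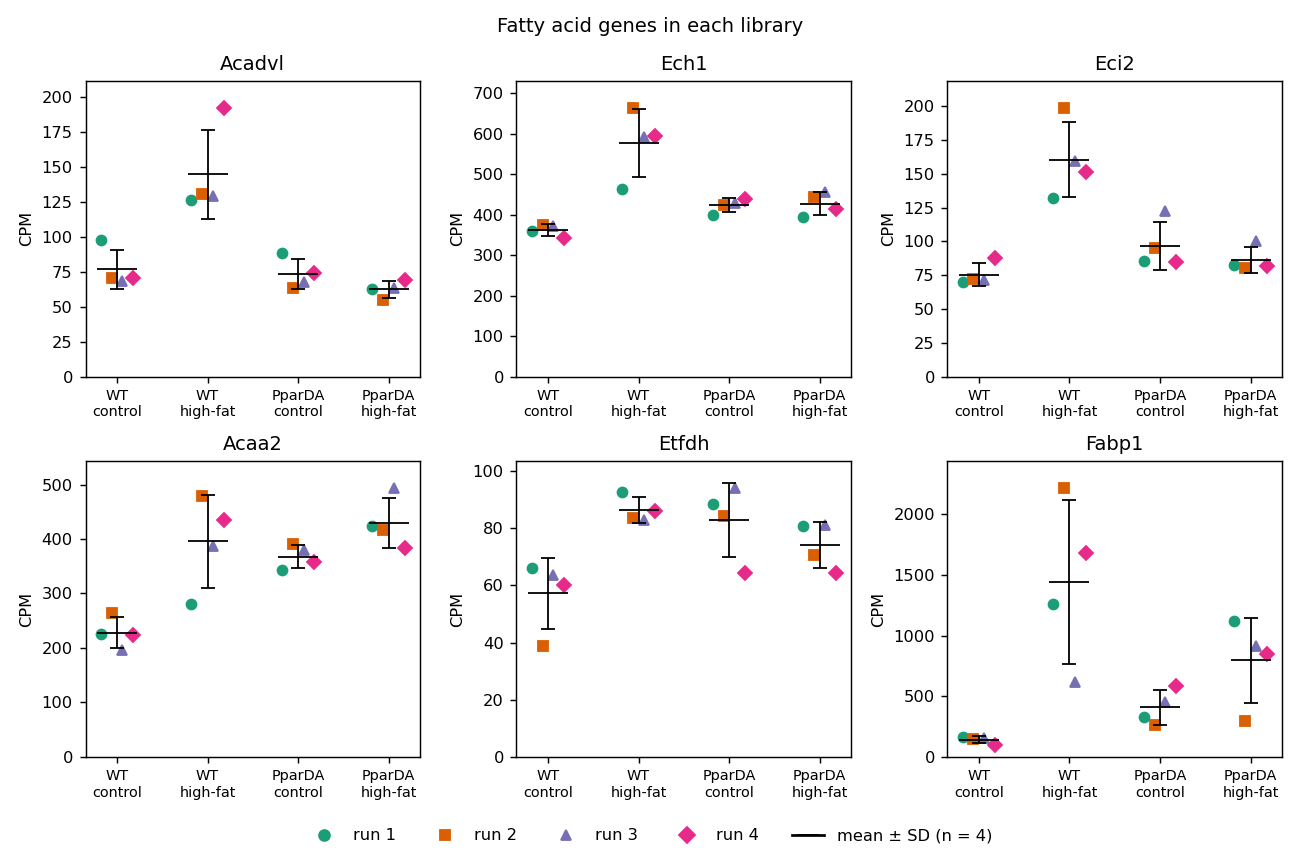
Levels in CPM of 6 fatty acid genes in the 16 libraries, by group; symbols mark the run, and black bars the mean ± SD of 4 libraries. For Acadvl the WT high-fat libraries sit between 127 and 192 CPM and every other library at 97.7 CPM or lower; for Fabp1 the WT control libraries sit between 99.8 and 166 CPM and all others at 261 CPM or higher.

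The genes of mitochondrial fatty acid oxidation shared the sign of the Acadvl difference, and Acadvl alone passed the test. Of 24 genes on the list 20 were tested (Acads, Acad9, Acot2 and Acsf2 were too low), and all 20 had a difference below 0, against 50.3% of all tested genes. In all 1 was called (Acadvl) and 6 had an unadjusted p under 0.05 in this direction, beside 3.54% of all genes. The median difference was -0.52 on the log2 scale, beside -0.00 over all genes, and ran from -1.25 for Eci2 to -0.05 for Decr1. Per run the median was -0.07, -0.78, -0.55 and -0.49. In all, 8 of the 20 genes were below 0 in each of the 4 runs, beside 7.24% of all genes. The list was chosen with results of these data known, so its shared direction is a description.

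The diet effect of each genotype is given next. In WT 17 of the 20 genes had a positive diet effect (49.3% of all genes did), with a median of 0.59. Of the 20 genes 4 were called, all higher, beside 0.119% of all tested genes. For 11 of the 20 every WT high-fat library lay above every WT control library, beside 2.21% of all tested genes. In PparDA 9 of the 20 were positive (49.9% of all genes), the median was -0.02, none was called, and for 0 of the 20 were the libraries so separated, beside 2.18% of all genes. The summed level of the list was 2664, 2299.9, 2416 and 2446 CPM in control-fed WT and 2938, 3639.6, 3365 and 3394 CPM in fat-fed WT, with no overlap. The PparDA sums were 2991, 2981, 3137 and 2991 CPM when control-fed and 3074, 2896, 3252 and 2798 CPM when fat-fed, which overlapped. All control-fed PparDA sums lay above the control-fed WT sums. So did the control-fed PparD sums (2919 to 3329 CPM), while those of control-fed PparA (2426 to 3182 CPM) overlapped the WT sums. On that diet 18 of the 20 genes were higher in PparDA than in WT, with a median of 0.35, and 3 were called, all higher in PparDA: Etfdh (0.54, adjusted p = 0.0291), Acaa2 (0.69, adjusted p = 0.011) and Acadl (1.48, adjusted p = 0.0468). On the high-fat diet 6 of 20 were higher, with a median of -0.08, and 3 were called, all lower in PparDA: Acadvl, Eci2 (-0.89, adjusted p = 0.0308) and Ech1 (-0.43, adjusted p = 0.0383). Calls made up 2.81% of all tested genes on the control diet and 2.18% on the high-fat diet. These were 98 higher and 67 lower in PparDA on the control diet, and 69 higher and 59 lower on the high-fat diet.

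**Figure D3:**
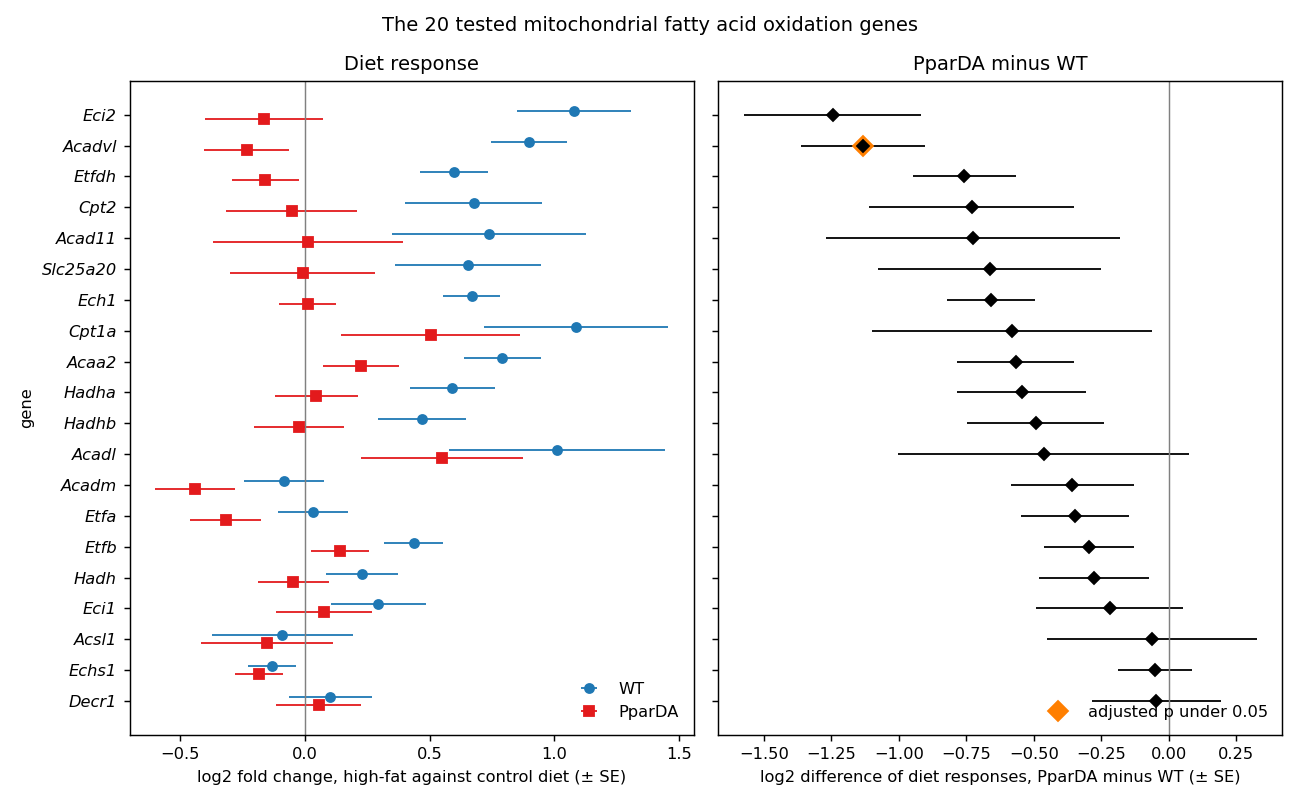
The left panel plots the log2 fold change with the high-fat diet (± SE) of the 20 tested oxidation genes in WT and in PparDA; the right panel plots the difference of the responses, PparDA minus WT (± SE), with the called gene Acadvl in orange. All 20 differences lie below 0, from -1.25 for Eci2 to -0.05 for Decr1.

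Of the other oxidation genes none passed the test over all genes. Ech1, which moves double bonds of unsaturated fatty acids during oxidation, was at 359, 374, 372 and 343 CPM in control-fed and 462, 663, 593 and 593 CPM in fat-fed WT libraries. The PparDA libraries had 399.6, 423, 429 and 439 CPM when control-fed and 393, 444, 455 and 414 CPM when fat-fed. The WT groups were apart and the PparDA groups overlapped. Ech1 rose in WT by 0.67 ± 0.12 (adjusted p = 0.008), the value in PparDA was 0.01 ± 0.12, and the difference was -0.66 ± 0.16 (adjusted p = 0.223). Eci2, an enoyl-CoA isomerase, was at 70.1, 71.9, 71.5 and 88.0 CPM in control-fed and 132, 199, 159.7 and 151 CPM in fat-fed WT libraries. PparDA gave 85.2, 94.9, 122 and 84.5 CPM when control-fed and 82.2, 80.2, 100.3 and 81.8 CPM when fat-fed. Here too the groups were apart in WT only. Eci2 rose in WT by 1.08 ± 0.23 (adjusted p = 0.0463), and the difference was -1.25 ± 0.33 (adjusted p = 0.306). A fit of the 16 libraries alone called Eci2 (adjusted p = 0.0171) but neither Acadvl (0.103) nor Rps24 (0.243).

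Etfdh passes electrons from β-oxidation to the respiratory chain. It was at 66.0, 38.9, 63.7 and 60.1 CPM in control-fed and 92.7, 83.5, 82.8 and 85.9 CPM in fat-fed WT libraries, against 64.2 to 94.0 CPM in the 8 PparDA libraries. The WT control libraries were low, apart from all high-fat WT libraries and just reaching the PparDA range, and the difference of responses was -0.76 ± 0.19 (adjusted p = 0.241). Acaa2, the thiolase of the last step, rose in WT from 228 ± 28.4 to 396 ± 85.1 CPM (log2 fold change 0.79 ± 0.15, adjusted p = 0.024; SD, n = 4). In PparDA it was at 368 ± 21.7 and 429.7 ± 46.0 CPM, and the difference was -0.57 ± 0.22 (adjusted p = 0.614). Hadha, a subunit of the trifunctional protein, differed by -0.54 ± 0.24 (adjusted p = 0.711). Cpt1a, which commits long-chain fatty acids to mitochondrial entry, was at 17.3 ± 11.8 and 36.8 ± 6.05 CPM in WT and at 24.7 ± 4.30 and 35.2 ± 9.70 CPM in PparDA. Its difference was -0.58 ± 0.52 (adjusted p = 0.867), and ran from -1.04 without the WT control library of run 1 to -0.29 without that of run 2. Acadl, the long-chain dehydrogenase, differed by -0.46 ± 0.54 (adjusted p = 0.928), and by 0.16 in runs 1 and 3 alone. The list also held genes with almost equal responses, such as Echs1 (-0.05 ± 0.14) and Decr1 (-0.05 ± 0.24).

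The known PPAR targets outside oxidation are given next. Fabp1, a fatty acid carrier of the cytosol, was at 166, 148, 157 and 99.8 CPM in control-fed and 1259.8, 2216, 619 and 1679 CPM in fat-fed WT libraries. Among PparDA libraries the control-fed had 328, 261, 454 and 585 CPM and the fat-fed 1123, 294, 910.4 and 851 CPM. The WT groups were apart, and in PparDA the high-fat library of run 2 lay within the control range. Fabp1 rose in WT by 3.24 ± 0.63 (adjusted p = 0.024), the value in PparDA was 1.03 ± 0.57 (adjusted p = 0.553), and the difference was -2.21 ± 0.83 (adjusted p = 0.603). Runs 1 and 3 alone gave -1.17 ± 0.79 for Fabp1 and runs 2 and 4 alone -3.53 ± 0.70. Angptl4, a secreted inhibitor of lipoprotein lipase, had 0 to 10.2 CPM in WT and 7.53 to 23.7 CPM in PparDA. It was higher in PparDA on the control diet by 2.71 (adjusted p = 0.0449), and its responses differed by -1.80 ± 0.99 (adjusted p = 0.731). Plin2, a coat protein of lipid droplets, differed by 0.06 ± 0.21. Of the 28 genes on this list 12 were tested, 10 had a lower response in PparDA and 2 a higher one, none was called, and the median was -0.40. Peroxisomal oxidation genes, which shorten very-long-chain fatty acids, had 9 of 13 lower with a median of -0.10 and none called, and the nearest to the threshold was Crot (-0.60 ± 0.31, adjusted p = 0.718).

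The diet raised 7 genes and lowered none in WT at an adjusted p under 0.05 (0.119% of genes tested), among them Acadvl, Ech1, Eci2, Acaa2, Fabp1 and Chchd2. Chchd2, a small mitochondrial protein, went from 67.7 ± 15.7 to 112 ± 21.4 CPM in WT and was between 90.7 and 127 CPM in the 8 PparDA libraries. Its responses differed by -0.75 ± 0.21 (adjusted p = 0.362), and it was higher in PparDA than in WT on the control diet by 0.74 (adjusted p = 0.00465). In PparDA 9 genes were called (0.153%), and none of the 7 was among them: Ncl, Rpl5, Rps15, Itpa, Rpl31-ps8 and Gm9794 were higher on the high-fat diet, and Cops2, Ppt2 and Rpl28-ps1 lower. That a gene passed in one genotype and not in the other does not show a difference, and of these 16 calls the test of the difference was passed by Acadvl and the pseudogenes Rpl28-ps1 and Rpl31-ps8.

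The other called genes belonged to the ribosome. Rps24, a protein of the small ribosomal subunit (ENSMUSG00000025290; chromosome 14, 24487125 to 24496959, plus strand), was at 1149.8, 1439, 1093 and 1982 CPM in control-fed and 2003, 2585, 2117 and 1355 CPM in fat-fed WT libraries. PparDA libraries were at 3249.8, 3176, 2797 and 2955 CPM when control-fed and 2398, 2280.0, 1791 and 1522 CPM when fat-fed. The WT groups overlapped, and the PparDA groups were apart. The diet effects of 0.50 ± 0.15 in WT (adjusted p = 0.266) and -0.61 ± 0.15 in PparDA (adjusted p = 0.0998) had opposite signs, and the difference was -1.11 ± 0.22. In WT the libraries separated by place in the run and not by diet: those in the first place had 1093 to 1439 CPM and those in the second 1982 to 2585 CPM, and in run 4 the control library was in the second place. WT libraries were apart by place for 4.46% of tested genes. In PparD mice, where place and diet also go together, Rps24 was at 7349.6 ± 738 CPM on the control diet and 1788 ± 171 CPM on the high-fat diet. PparA libraries had their places tied to diet in the same way. Their Rps24 level, summed over 3 identifiers, was 1484 ± 163 CPM when control-fed and 1549 ± 59.3 CPM when fat-fed. In WT only the libraries of run 4 tell place from diet. The part of place in the PparDA response was not tested, since place and diet cannot be told apart in that genotype. The call was lost on leaving out any one of 14 of the 16 libraries, all but the WT libraries of run 4, with differences from -1.38 to -1.003. Of 81 tested ribosomal protein genes 56 had a higher and 25 a lower response in PparDA, with a median of 0.07 (-0.036 without the control-fed WT library of run 4) and Rps24 alone called.

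Rpl28-ps1 (chromosome 1, 128038569 to 128038982) was at 473 CPM in WT control, 219 CPM in WT high-fat, 304 CPM in PparDA control and 0 in PparDA high-fat in run 1. Rpl31-ps8 (chromosome 15, 90764279 to 90764656) was at 173, 132, 0 and 196 CPM in the same libraries. In runs 2 to 4 both were at 0 in every library. The calls therefore rest on 1 library a group, and 9 of the tested genes (0.153%) had counts from 1 run only, Gm9794 and Rps12l1 among them. Reads of such pseudogenes can be split with the parent gene. Summed over the parent and its pseudogenes, the responses differed by -0.29 ± 0.29 (SD over the 4 runs) for the Rpl28 family of 5 identifiers and by 0.17 ± 0.20 for the Rpl31 family of 25. The same sum over 3 identifiers for Rps24 gave -1.14 ± 0.51.

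**Figure D4:**
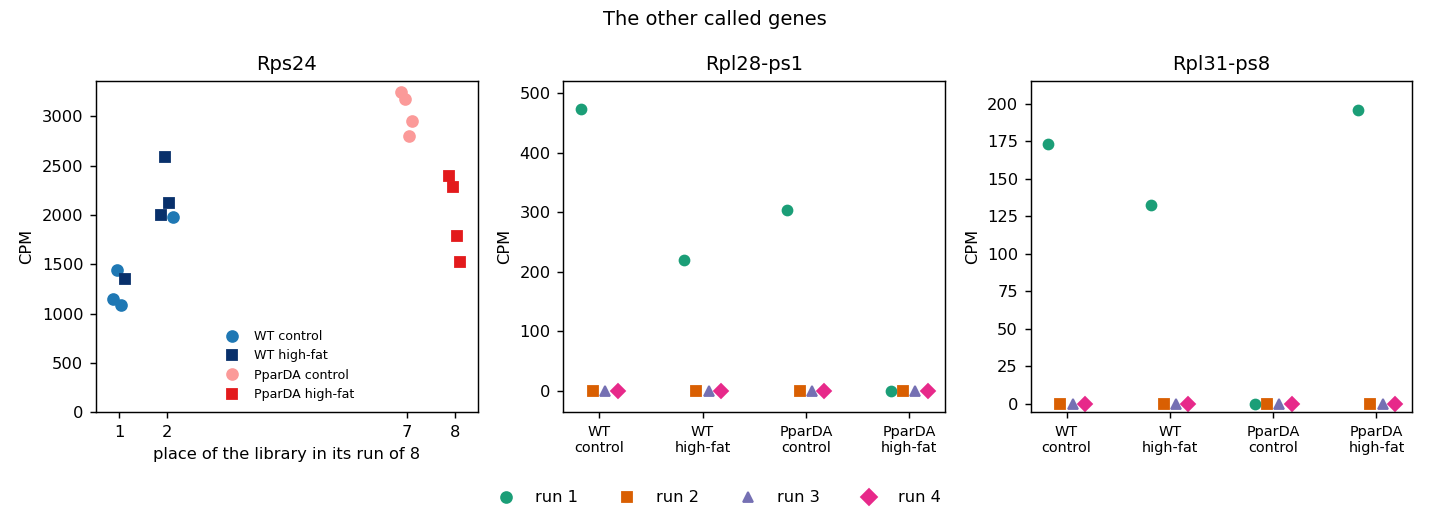
Levels in CPM of the 3 other called genes; the left panel places each library of WT and PparDA by its place in its run of 8, coloured by group, and the others show each library by group, with symbols for the run. WT libraries of Rps24 separate by place (1093 to 1439 against 1982 to 2585 CPM), and Rpl28-ps1 and Rpl31-ps8 are above 0 in run 1 only.

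Beyond the calls, the next genes in order of p did not pass. Cops2, a subunit of the COP9 signalosome, which removes a ubiquitin-like tag from ligases, was at 142, 162, 135 and 132 CPM in control-fed and 162, 146, 171 and 121 CPM in fat-fed WT libraries. For PparDA the values were 169, 167, 205 and 196 CPM when control-fed and 113, 114, 129 and 112 CPM when fat-fed. The groups were apart in PparDA only. Cops2 fell in PparDA by 0.66 on the log2 scale (SE 0.12, adjusted p = 0.00919), and the responses differed by -0.72 ± 0.16 (adjusted p = 0.141). Rab9, a small GTPase of transport from late endosomes, was apart between diets in both genotypes and in opposite directions, with 43.0 ± 6.91 and 61.6 ± 4.83 CPM in WT and 72.2 ± 4.66 and 53.0 ± 7.61 CPM in PparDA. Its difference was -0.97 ± 0.24 (adjusted p = 0.223). Pkm, the pyruvate kinase of glycolysis, went the other way, with 328 to 395 and 200.4 to 296 CPM in control-fed and fat-fed WT and 201 to 266 and 236 to 384 CPM in PparDA, and a difference of 0.86 ± 0.23 (adjusted p = 0.306). Itgb1, the integrin β1 chain, which anchors cells to matrix, had 30.4 ± 4.96 and 13.7 ± 4.21 CPM in WT and 21.7 ± 5.54 and 26.8 ± 3.26 CPM in PparDA, a difference of 1.46 ± 0.40 (adjusted p = 0.338). The remaining genes in this order were Ubap2 (-1.18), Nceh1 (-2.31), Smarce1 (0.87), Mtif2 (1.29), Cbx3 (0.49), Gng5 (0.45), Tm4sf4 (-1.31), Fyttd1 (-1.65) and Zbtb20 (-1.38), given as log2 differences with adjusted p from 0.223 to 0.384. Ppt2, a lysosomal thioesterase named after its values were seen, was at 37.9 ± 5.09 CPM in PparDA on the control diet and at 6.31 to 8.82 CPM on average in the other 3 groups. It fell in PparDA by 2.08 (SE 0.30, adjusted p = 0.000904), and the difference of responses was -1.78 ± 0.53 (adjusted p = 0.397).

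Markers of secretory cells moved in the same direction as the oxidation genes. Of 21 tested Paneth cell markers all had a lower response in PparDA, with a median of -1.70, none called and 10 at an unadjusted p under 0.05, beside 3.54% of all genes. Without the WT high-fat library of run 1 the median was -0.59, with 17 of 21 lower. With all libraries the median diet effect was 1.71 in WT and 0.12 in PparDA, and per run the difference was -3.55, -1.16, 1.05 and -1.31. The sums were 5095, 4646, 6040.3 and 17632 CPM in control-fed and 52029, 16618, 8028 and 21579 CPM in fat-fed WT, and 14514, 12173, 4456 and 45405 CPM and then 15421, 18338, 11668 and 21034 CPM in PparDA. The groups overlapped in both genotypes, and the difference in run 3 went the other way from that in the other runs. Ang4, an antimicrobial ribonuclease, differed by -2.48 ± 0.87 (adjusted p = 0.525), and Lyz1, the Paneth lysozyme, by -1.84 ± 0.72 (adjusted p = 0.632). Among 11 goblet cell markers all were lower, with a median of -0.64 and none called. Klk1, a secreted protease, gave -0.94 ± 0.29 (adjusted p = 0.397) and Clca1, a secreted protein of mucus, -2.10 ± 0.79 (adjusted p = 0.603). Goblet sums were 1809 to 4965 CPM in WT control, 3201 to 6892 CPM in WT high-fat, 3146 to 7536 CPM in PparDA control and 3953 to 8739 CPM in PparDA high-fat libraries. Of 22 listed enteroendocrine and 21 listed tuft markers 8 each were tested. The tested enteroendocrine markers were lower in 8 of 8 (median -0.74) and the tuft markers in 7 of 8 (median -0.82), none called. Chga, Cck and Neurod1, and among tuft markers Dclk1, Trpm5 and Sh2d6, were too low to be tested. Cck was at 0 in 7 and Dclk1 in 1 of the 16 libraries. In runs 1 and 3 alone the medians were -0.16 for goblet (8 of 11 lower) and -0.016 for enteroendocrine markers (4 of 8), and in runs 2 and 4 alone -0.39 for tuft markers. In bulk samples fewer cells of a type and less RNA per cell cannot be told apart. The WT high-fat library of run 1 and the WT control library of run 4 had the highest Paneth sums of their groups. With this pair left out, a choice made after seeing the data, Acadvl gave -1.09 ± 0.24 (adjusted p = 0.122). The oxidation list then had a median of -0.59, with 20 of 20 below 0. The PparDA control library of run 4, at 45405 CPM of Paneth markers, stayed in. The part of secretory cells in the oxidation result was not tested. Enterocyte markers, the absorptive lineage, were higher in 14 of 20, beside 49.7% of all genes. The median was 0.26, and -0.28 without the control-fed WT library of run 3. In level, 19 of 20 were higher in PparDA than in WT on either diet. Of these markers 1 was called between the genotypes on the control diet and 0 on the high-fat diet, beside 2.81% and 2.18% of all genes. The enterocyte sum was 3284 to 3656 CPM in WT control and 3286 to 4118 CPM in WT high-fat libraries. It was 4323 to 4994 CPM in PparDA control and 4528 to 6195 CPM in PparDA high-fat libraries. The lymphocyte markers together stayed between 7.26 CPM and the 33.02 CPM of 1 PparDA library, and none passed the filter.

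**Figure D5:**
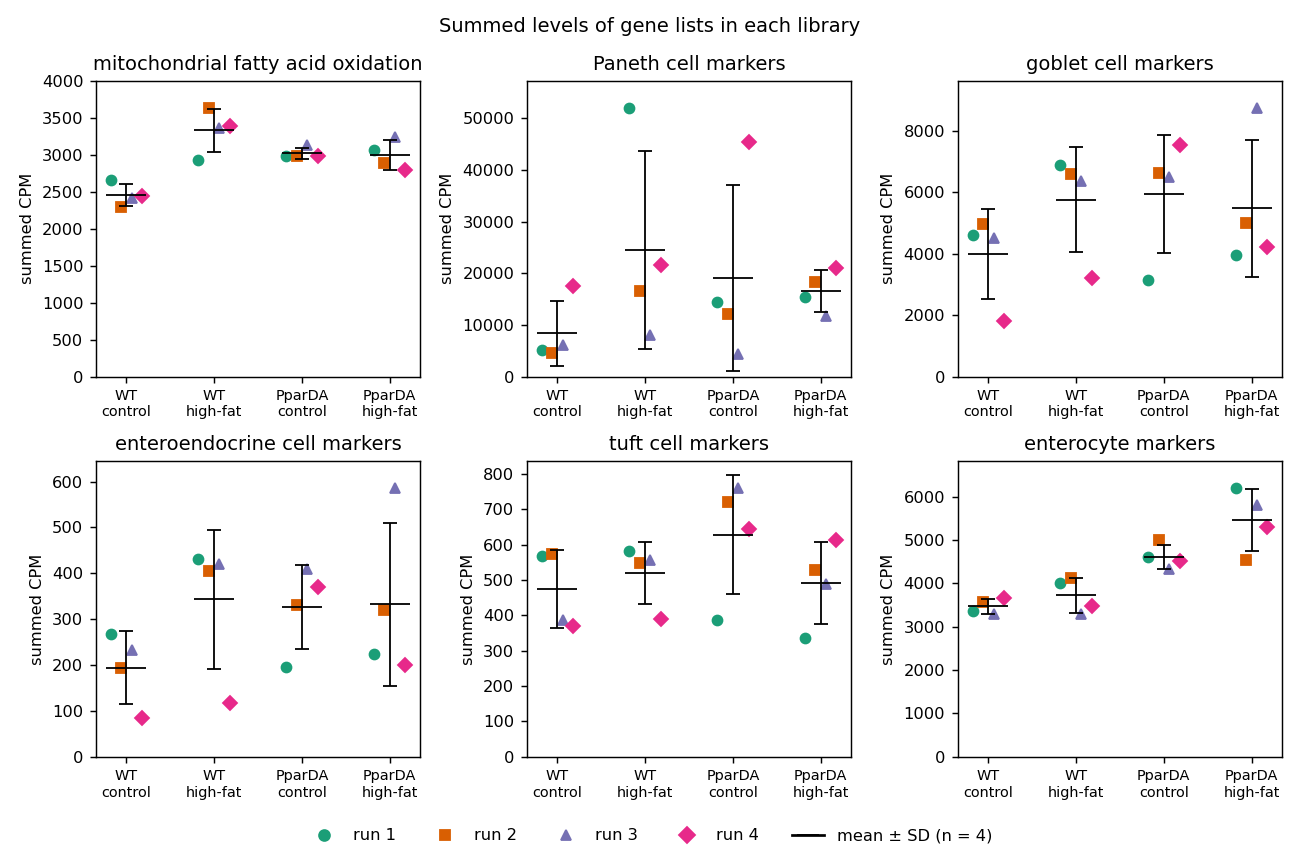
Summed CPM of the oxidation genes and of 5 marker lists in the 16 libraries by group, with symbols for the run and black bars for the mean ± SD of 4 libraries. The oxidation sums of WT do not overlap between diets (2299.9 to 2664 against 2938 to 3639.6 CPM), while the Paneth sums overlap in both genotypes.

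In the other lists no gene was called. Stem cell markers were higher in 12 of 20 (median 0.13), none called. Lgr5 was at 44.7 ± 15.2 and 42.3 ± 4.29 CPM in WT and 45.4 ± 6.28 and 40.5 ± 6.69 CPM in PparDA. Its responses differed by -0.12 ± 0.33 (adjusted p = 0.984). Olfm4, a secreted marker of crypt base cells, differed by -0.28 ± 0.15 (adjusted p = 0.718). Proliferation genes were higher in 18 of 28 (median 0.15). The medians of the lipid synthesis lists lay above 0. Fatty acid synthesis genes were higher in 7 of 9 (median 0.23), but per run the median was 0.68, -0.02, -0.07 and 0.43. Cholesterol synthesis genes were higher in 11 of 16 (median 0.27), with 0.26, 0.36, 0.14 and 0.02 per run. The desaturase Scd2 gave 2.5 ± 0.86 (adjusted p = 0.525), the elongase Elovl6 1.22 ± 0.55 (adjusted p = 0.718) and Acss2, which makes acetyl-CoA, 0.99 ± 0.48 (adjusted p = 0.718). Glycolysis genes were higher in 9 of 11 (median 0.24). Lipid uptake and lipoprotein genes were higher in 9 of 13 (median 0.27, and -0.22 without the control-fed WT library of run 3), led by Sar1b, a GTPase of chylomicron export (0.45 ± 0.14, adjusted p = 0.424). MHC class II genes, which present antigens, were higher in 6 of 6 with a median of 0.62, but per run this was 1.08, 2.94, -2.60 and 1.22. The tricarboxylic acid cycle (median -0.016, and 0.023 with upper-quartile factors), the nuclear-encoded respiratory chain (0.05) and mitochondrially encoded transcripts (0.05) lay close to 0, beside -0.52 for the oxidation genes.

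The diet effects of PparD and PparA stand beside these as follows. The median diet effect of the 20 oxidation genes was 0.59 in WT, 0.34 in PparD, 0.35 in PparA and -0.02 in PparDA, with 17, 16, 15 and 9 genes positive. For Acadvl the diet effects were 0.90, 0.40, 0.31 and -0.23 and for Eci2 1.08, 0.60, 0.60 and -0.16 in the same order. Set against WT, the Acadvl response differed by -0.50 in PparD (adjusted p = 1) and -0.58 in PparA (adjusted p = 0.364), neither past the threshold. These comparisons share the WT libraries. Tested directly, the Acadvl response of PparDA differed from that of PparD by -0.63 (adjusted p = 0.663) and from that of PparA by -0.55 (adjusted p = 0.385). Thus no oxidation gene named here was shown to respond differently in PparDA than in PparD or PparA. The test of PparDA against PparD called 6 genes of 5872 (0.102%) and that against PparA 20 (0.341%). Rps24 was among the former (1.43, adjusted p = 0.00113), and Zbtb20, a zinc finger repressor, among the latter (-1.73, adjusted p = 0.0361).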

How the data were processed

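Expected counts per gene and library, deposited as whole numbers, were the input of the main test and of the other count models; the deposited log2(CPM + 1) values served the limma alternative only. Salmon 1.1.0, edgeR 3.30.2, R 4.0.2 and build mm10 appear in the submitters' processing notes, with no roles. Neither the annotation release nor any molecular identifier (UMI) is stated there, and without identifiers reads are not independent molecules. Reads near 3' ends can be split among near-identical copies, such as ribosomal genes and their pseudogenes.

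Of 54418 gene identifiers 54096 matched GENCODE M21 (GRCm38), which gave symbols and coordinates, and 322 did not. Genes were kept by filterByExpr over the 8 groups (minimum count 10, minimum total 15), and the 5872 kept genes held 97.1 to 97.7% of counts. TMM factors ran from 0.938 to 1.07. A quasi-likelihood model (edgeR 4.0.16, R 4.3.3; glmQLFit and glmQLFTest, two-sided) with 1 coefficient per group and the run as a factor was fitted to the expected counts of all 32 libraries, with a common biological coefficient of variation of 16.8%. The contrast was (PparDA high-fat minus PparDA control) minus (WT high-fat minus WT control). Every adjusted p is a Benjamini-Hochberg value over all genes tested, and genes were called under 0.05. The SE is the log2 value divided by the square root of F. Per-run differences used log2(CPM + 1) and have no test.

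Column names give the group and library number and no replicate number. The numbers pair libraries by run, judged by correlations of their deviations from the group means. Of 112 same-run pairs 87 correlated above 0.1 (lowest -0.029). The mean was 0.173 against -0.092 between runs, where the highest was 0.324. Deviations within a group sum to 0, which by itself pulls the mean between runs below 0. In all, 31 of 32 libraries correlated best with one of their own run. The run was in the main fit because the comparison was defined so.

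Members and lists were chosen with earlier results of these data known. Genes are named by rule: called genes, up to 15 a direction with a mean of at least 5 CPM, without predicted genes and pseudogenes, filled to 20 by p; 15 fixed lipid and stem cell genes; and up to 4 genes with the smallest p of a described list. The called pseudogenes are named as called. Alternatives were limma 3.58.1, DESeq2 1.42.0, other scaling factors, filters, priors and sets of libraries. Results of 1 withheld gene are not reported here; counts over all genes and lists include it.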

Additional observations from a re-analysis of the deposited data

Results flagged for a closer look

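The diet response differed between the genotypes by the test of the difference itself for Acadvl (-1.13), Rps24 (-1.11), Rpl28-ps1 (-7.49) and Rpl31-ps8 (8.39), all as fitted log2 differences. The values of the pseudogenes rest on 1 library at 0 and depend on the prior count, so they are no measure of size.

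Of 142 groups of 4 libraries 20 had a library far from the other 3 by Dixon's ratio of the gap to the range; chance gives about 1 in 20. Rpl28-ps1 was at 473 CPM in the WT control, 219 CPM in the WT high-fat and 304 CPM in the PparDA control library of run 1, and Rpl31-ps8 at 173 CPM in WT control, 132 CPM in WT high-fat and 196 CPM in PparDA high-fat of run 1, with 0 in the other runs. Acadvl was at 97.7 CPM in the WT control library of run 1 (68.4 to 70.4 in the others) and at 192 CPM in the WT high-fat library of run 4 (127 to 131). Eci2 was at 88.0 CPM in the WT control library of run 4 and at 100.3 CPM in the PparDA high-fat library of run 3. That last library also stood apart for Cops2 (129 CPM) and Tm4sf4 (215 CPM, against 75.4 to 93.8). Ubap2 was at 46.4 CPM in the WT control library of run 2, Zbtb20 at 32.5 CPM in the PparDA control library of run 1 and Lgr5 at 30.5 CPM in the PparDA high-fat library of run 2.

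Among summed lists, the oxidation genes were at 3137 CPM in the PparDA control library of run 3, against 2981 to 2991 in the others. The WT libraries of run 4 stood apart for secretory markers. The control library had 17632 CPM of Paneth markers (4646 to 6040.3 in the others) and 1809 CPM of goblet markers (4521 to 4965), and the high-fat library had 3201 CPM of goblet markers (6358 to 6892) and 117 CPM of enteroendocrine markers (405 to 431).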

How the results depend on the processing

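The count of 4 calls was 0 without the run as a factor (no replicate block, 339 genes at an unadjusted p under 0.05), 0 with upper-quartile factors (442), 0 when only the 3988 genes averaging 20 CPM or more were tested (293), 1 with DESeq2 (220), 1 with limma-trend (394), 1 in runs 2 and 4 only, and 83 of 21299 without a filter on low counts (18 higher, 65 lower). These 83 held the 4 and also Fabp1, Eci2, Ubap2, Nceh1, Pkm, Tm4sf4, Clca1 and Paneth markers such as Lyz1 and Ang4, which apart from the 4 were not called with the filter. The count was 4 with relative log expression factors (the same 4), with a robust prior (3 of them) and in a fit of the 16 libraries alone (both pseudogenes and Eci2 among them, without Acadvl and Rps24), and 6 in runs 1 and 3 only. Leaving out a library or a run gave 0 to 5. Chosen after seeing the data, leaving out the WT high-fat library of run 1 and the WT control library of run 4 gave 1 (Rps24), and genes with counts in at least 2 runs gave 0. The causes were not tested. Over the 33 alternatives Acadvl ran from -1.34 to -0.93 with adjusted p of 0.00585 to 0.705, Rps24 from -1.43 to -0.87 and the oxidation list's median from -0.68 to -0.28. Signs turned for Acadl in runs 1 and 3 only (0.16). Plin2 ran from -0.082 to 0.20 when a library or run was left out, and was -0.12 in runs 2 and 4 only and -0.017 without the pair above. Lgr5 ran from -0.36 to 0.040 when a library or run was left out, and was 0.25 in runs 2 and 4 only. Rpl28-ps1 ran from -8.26 to 1.27 and Rpl31-ps8 from 0 to 8.85 on leaving out a library or run, and both gave 0 in runs 2 and 4 only. With 612672 to 724155 counts a library, genes of a few CPM could not be tested.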
